A study of Mus musculus with 4 samples.

Results

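The genes described here are oncostatin M, interleukin 6 and their close relatives in the IL-6 cytokine family. They were taken by symbol from the gene table of the files, with earlier results of these data known, and number 10 of 32285 genes. The 4 ligands are Osm, Il6, Lif and Il11, and the 6 receptor chains are Osmr, Il6ra, Il6st, Lifr, Il11ra1 and Il31ra. All 10 had UMIs (unique molecular identifiers, each counting 1 captured transcript) in every library.

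RNA of single cells was counted in 4 libraries with a 3′ tag method, 1 library per group, each from the pooled neck and ear skin of 3 female C57BL/6J mice aged 6 to 8 weeks. The untreated group received no agent. The oxazolone groups were sensitised with 100 µL of this contact hapten at 3% in acetone and mineral oil and challenged at 1.0% every other day from 7 days later, and skin was taken at day 10 or at day 16. The MC903 group received 1 nmol calcipotriol, a vitamin D analog, in 100 µL of ethanol each day for 9 days. No vehicle group was analysed here, so effects of a vehicle cannot be told apart from those of the agents. The digestion was set up to release more fibroblasts, and dead cells were removed. The series title names basophils and fibroblasts in type 2 skin inflammation, and the comparisons ask which cells held the ligand transcripts, which held the receptor transcripts, and how both differed between libraries.

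Cytokines of this family signal through gp130, the chain encoded by Il6st, which pairs with a second chain that fixes which ligand is heard. Oncostatin M binds gp130 with the oncostatin M receptor chain (Osmr), and LIF binds gp130 with its own receptor (Lifr). IL-6 and IL-11 first bind IL-6 receptor alpha (Il6ra) and IL-11 receptor alpha (Il11ra1). Il31ra is the exception, since it pairs with Osmr and not with gp130 to form the receptor of the itch cytokine IL-31. The receptors act through JAK kinases and STAT3, with SOCS3 as a feedback inhibitor. In skin, oncostatin M is known mainly as a product of myeloid cells that acts on keratinocytes and stromal cells.

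Several family genes are neighbours in the genome (GRCm38). Osm lies at chr11:4236420-4241026 and Lif at chr11:4257557-4272514, both on the plus strand, with 16.53 kb and 0 annotated genes between them. Osmr (chr15:6813577-6874969, minus strand) and Lifr (chr15:7090614-7197489, plus strand) are 215.644 kb apart with 0 protein-coding genes between them. Il6st (chr13:112464070-112510086, plus strand) and Il31ra (chr13:112519898-112594360, minus strand) are 9.811 kb apart. Il6 lies at chr5:30013114-30019981, Il11 at chr7:4772373-4782859, Il6ra at chr3:89864059-89913196 and Il11ra1 at chr4:41699989-41769474. The annotated spans of Il11ra1 and Il31ra each overlap another gene on the same strand (Galt and Gm3226), so reads in the shared stretches could be assigned to either. The 3 near-identical Il11ra2 entries held 1 UMI in all libraries together.

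The promoters of the ligands Il6, Lif and Il11 and of Osmr, the specific chain of the oncostatin M receptor, are shown because each held a searched motif. They are RefSeq sequences (GRCm38.p6), from 250 bases before the start to 50 after it, and 9 of the 10 genes matched an entry, with Osm not matched. Il11 has 2 entries, of which the one with a match is shown. Capitals mark matches, on either strand, to the searched letters TGANTCA (AP-1), TTCNNNGAA (STAT), TTGNNCAA (C/EBP) and GGGANTTTC (NF-kB).
Il6 promoter, chr5:30012864-30013163, plus strand: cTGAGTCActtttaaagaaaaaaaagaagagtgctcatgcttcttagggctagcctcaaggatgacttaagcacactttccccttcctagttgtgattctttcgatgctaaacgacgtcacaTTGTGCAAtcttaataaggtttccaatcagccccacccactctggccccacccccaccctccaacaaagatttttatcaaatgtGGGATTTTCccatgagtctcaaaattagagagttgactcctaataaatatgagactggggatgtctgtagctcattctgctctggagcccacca
Lif promoter, chr11:4257318-4257617, plus strand: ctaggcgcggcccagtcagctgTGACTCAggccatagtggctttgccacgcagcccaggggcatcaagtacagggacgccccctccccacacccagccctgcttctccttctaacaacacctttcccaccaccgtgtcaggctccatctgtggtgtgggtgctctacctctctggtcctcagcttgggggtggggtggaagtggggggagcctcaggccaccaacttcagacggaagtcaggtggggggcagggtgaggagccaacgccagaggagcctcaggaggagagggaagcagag
Il11 promoter, chr7:4778092-4778391, minus strand: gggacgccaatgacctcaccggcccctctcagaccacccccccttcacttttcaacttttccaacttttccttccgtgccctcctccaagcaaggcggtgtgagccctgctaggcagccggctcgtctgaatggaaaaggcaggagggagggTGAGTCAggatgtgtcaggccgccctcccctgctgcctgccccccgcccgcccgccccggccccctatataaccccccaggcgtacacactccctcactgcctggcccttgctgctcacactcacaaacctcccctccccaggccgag
Osmr promoter, chr15:6874264-6874563, minus strand: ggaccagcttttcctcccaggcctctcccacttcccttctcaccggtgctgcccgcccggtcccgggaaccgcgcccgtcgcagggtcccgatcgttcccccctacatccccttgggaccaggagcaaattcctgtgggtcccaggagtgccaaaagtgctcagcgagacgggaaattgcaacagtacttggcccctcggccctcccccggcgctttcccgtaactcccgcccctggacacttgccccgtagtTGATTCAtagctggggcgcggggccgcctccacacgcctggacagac
The Il6 promoter matched the AP-1 letters 249 bases before the start, the C/EBP letters 128 bases before it and the NF-kB letters 44 bases before it. The Lif and Il11 promoters matched the AP-1 letters 228 and 98 bases before the start, and the Osmr promoter matched them 3 bases after it. Among all 32851 promoter entries of this length, 7.81% held the AP-1 letters, 8.30% the STAT letters, 6.40% the C/EBP letters and 1.11% the NF-kB letters. None of these 4 promoters matched the STAT letters, and of the other members Il31ra matched them, 191 bases before its start. These matches describe letters only and no binding was measured.

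Library totals were 73054242 to 119717836 UMIs, and filtering kept 7224 untreated cells, 7723 and 7390 of the earlier and later oxazolone libraries and 3714 of the MC903 library, with a median of 8814.5 to 14382 UMIs per cell. Pairs of libraries shared 5 to 12 cell barcodes. Cells were clustered without the 10 family genes, and clusters were named by their markers as "-like", which rests on transcripts alone. Unnamed clusters held 4.37% to 13.3% of the cells. Because cells of 1 library are not replicates, no difference between libraries was tested and none has a replicate check. Values are UMIs scaled to the usual counts-per-million total of the class (CPM), with exact 95% intervals in brackets that cover counting error only. A gene is called higher or lower at a difference of at least 2-fold provided that both libraries together had 30 UMIs or more. The 3 comparisons with untreated skin share the untreated library. The day 16 and MC903 files were made with another version of the counting software than those of untreated skin and day 10. Version and treatment cannot be told apart where a comparison crosses these pairs.

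Osm transcripts were far more numerous in all treated libraries than in untreated skin, and they lay in myeloid cells and basophil-like cells. The libraries held 201 (untreated), 4776 (oxazolone day 10), 28455 (day 16) and 4704 (MC903) Osm UMIs, or 2.44, 45.2, 291 and 68.5 CPM over all kept cells. Neutrophil-like cells held 63.7% of the Osm UMIs at day 10 and 64.5% at day 16. With MC903 macrophage or monocyte-like cells held the largest share, 44.1% [42.7, 45.5], with basophil-like cells at 21.2% [20.0, 22.4] and neutrophil-like cells at 20.1%. Basophil-like cells were 63 of 3714 cells of that library.

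**Figure D1:**
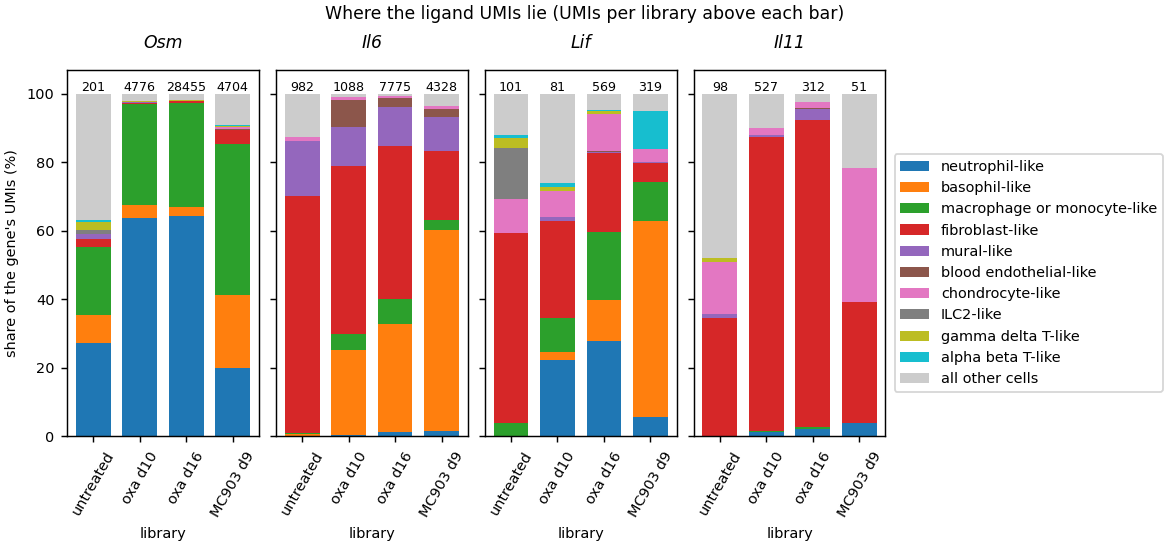
Share of each ligand gene's UMIs (y axis, percent) by cell class in the 4 libraries (x axis), with the gene's UMIs in the library printed above each bar. Neutrophil-like cells held most Osm UMIs after oxazolone and 20.1% with MC903, Il6 and Lif UMIs with MC903 lay mainly in basophil-like cells (58.6% and 57.4%), and Il11 UMIs after oxazolone lay mainly in fibroblast-like cells (85.8% and 89.4%).

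Per UMI of the class, basophil-like cells had the highest Osm level of the measured classes in the 3 treated libraries. Their level was 463 CPM [265, 752] in untreated skin, where it rests on 16 UMIs in 11 cells, 9 of them in 1 cell, with a median cell of 0. It was 399 [343, 461] at the earlier oxazolone time, then 1562 [1449, 1682] at day 16 and 1814 [1703, 1930] with MC903. Day 16 and MC903 were thus well above day 10, and the intervals of day 10 and untreated skin overlapped. The log2 ratio of day 16 to day 10 was 1.97 [1.73, 2.21]. A median basophil-like cell stood at 133 CPM at day 10, 775 at day 16 and 1029 with MC903, so Osm was not confined to single cells. The class level did lean on few cells. The 5 cells with most Osm UMIs held 53.0%, 50.6% and 36.9% of the class's Osm UMIs in that order.

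Neutrophil-like cells numbered 22 in untreated skin, too few for a level, and these held 55 of its 201 Osm UMIs. In the treated libraries the class had 323 CPM [311, 334] at day 10, 557 [549, 565] at day 16 and 380 [356, 405] with MC903. The log2 ratio of day 16 to day 10, 0.79 [0.73, 0.84], was under the 2-fold line. The number of neutrophil-like cells also differed, with 1794 at day 10 and 4230 at day 16, and the class ratio compares largely different clusters. B4 held 1045 of the day 10 cells (293 CPM) but 25 at day 16, and B0 held 1297 of the day 16 cells (556 CPM) but 17 at day 10. Clusters with enough cells on both sides were uneven: B2 had 80.7 CPM at day 10 and 346 at day 16 (log2 ratio 2.10), B3, led by the neutrophil surface gene Ly6g, had 309 and 714 (1.21), and B9, led by the granule genes Camp, Ltf and Ngp, had 449 and 841 (0.90).

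In macrophage or monocyte-like cells Osm was at 37.0 CPM [26.4, 50.3] in untreated skin against 57.5 [54.5, 60.6] at day 10, 279 [273, 285] at day 16 and 493 [472, 514] with MC903. The ratios to untreated skin were 0.64 at day 10, 2.92 [2.47, 3.40] at day 16 and 3.74 [3.29, 4.23] with MC903 on the log2 scale. Different clusters made up most of the class: B10, led by the resident macrophage genes Folr2 and Cd163, in untreated skin against B6 at day 10, and B1, led by Arg1 and Mmp13, at day 16 and with MC903. Within B10 Osm stood at 11.7 CPM in untreated skin (6 UMIs) against 32.6 at day 10 and 106 at day 16, a log2 ratio of day 16 to untreated skin of 3.17 [2.04, 4.63]. Within B1 it stood at 115 CPM at day 10, 317 at day 16 and 892 with MC903, where its 80 cells held 33.4% of the library's Osm UMIs. Against untreated skin the difference could thus be followed inside a cluster only in B10 after oxazolone, where the untreated level rests on 6 UMIs. B10 had 32 cells with MC903, too few for a comparison. B1 had 0 untreated cells, so its values compare treated libraries only. When cells were classed by their markers alone, the MC903 level of the class was 399 CPM.

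Dendritic-like cells had 3.35 CPM of Osm in untreated skin against 15 [11.0, 20.0] at day 10 and 178 [157, 201] at day 16, with fewer than 50 such cells in the MC903 library. In untreated skin 20.9% of the Osm UMIs lay in unnamed cluster B12 (289 cells, led by Ear2 and Cd209 genes), at 13.7 CPM. Alpha beta T-like cells stayed between 1.82 and 11.9 CPM.

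Low Osm levels in several stromal classes stood beside similar traces of neutrophil transcripts. Fibroblast-like cells had 0.216 CPM of Osm in untreated skin against 1.14 at day 10, 8.93 [7.36, 10.7] at day 16 and 6.52 [5.62, 7.52] with MC903. At day 16 their Osm level was 1.60% of that in neutrophil-like cells, and the summed level of the 8 neutrophil markers was 1.30% of it. With MC903 the corresponding shares were 1.72% and 1.77%, with all 8 markers detected. In chondrocyte-like cells they were 1.42% and 1.36% at day 16, and in melanocyte-like cells with MC903 15.6% and 14.4%. Not all low levels were near parity. Alpha beta T-like cells with MC903 were above it (3.14% and 0.113%), as were Schwann-like cells with MC903 (2.45% and 0.110%). At day 10 fibroblast-like (0.354% and 0.118%) and melanocyte-like cells (2.14% and 0.649%) were above it, and blood endothelial-like cells below (0% and 0.255%). The basophil-like class stood far from such parity, with Osm at 280% and neutrophil markers at 8.39% of the neutrophil-like level at day 16, and 478% and 0.264% with MC903. Macrophage or monocyte-like cells (50.1% and 1.35% at day 16) and dendritic-like cells (32.0% and 1.64%) were also well above it. The part of RNA from other cells in the low levels was not tested; after RNA of the library's mean composition amounting to 5% of the class was subtracted, Osm in fibroblast-like cells at day 16 was 0, and with MC903 its log2 ratio to untreated skin was 5.04.

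**Figure D2:**
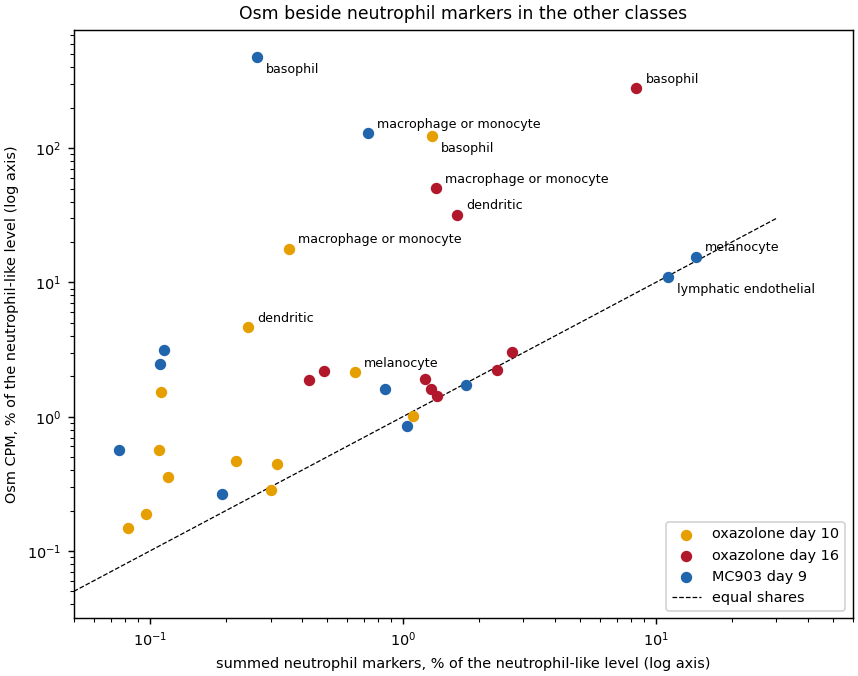
Osm level of each class (y axis) against the summed level of 8 neutrophil markers (x axis), both as percent of the neutrophil-like level of the same library on log axes, with 1 point per class and treated library and a dashed line where both are equal. Basophil-like, macrophage or monocyte-like and dendritic-like cells lie above the line by up to 478% against 0.264%, while the other classes, except melanocyte-like and lymphatic endothelial-like cells with MC903, lie below 5% of the neutrophil-like Osm level.

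Il6 was highest in basophil-like cells of the treated libraries, with fibroblast-like and mural-like cells as the other main holders. The libraries held 982, 1088, 7775 and 4328 Il6 UMIs (11.9, 10.3, 79.5 and 63.0 CPM over all kept cells) in that order, so day 10 was no higher than untreated skin. In untreated skin fibroblast-like cells held 69.2% of the Il6 UMIs and basophil-like cells 0.713%. The basophil-like share was 24.7% at day 10, 31.4% at day 16 and 58.6% [57.2, 60.1] with MC903, where fibroblast-like cells held 20.1%.

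In basophil-like cells Il6 stood at 202 CPM [81.4, 417] in untreated skin (7 UMIs) against 593 [524, 668] at day 10, 5413 [5200, 5632] at day 16 and 4621 [4443, 4805] with MC903. The day 10 level lay below both later levels without overlap of intervals. A median cell of the class had 0 CPM at day 10, 2078 at day 16 and 1236 with MC903, and the highest cell had 24562 at day 16. Cells with both an Osm and an Il6 UMI were 26.6% [17.3, 37.7] of the 79 basophil-like cells at day 10, then 78.9% [66.1, 88.6] of 57 (day 16) and 69.8% [57.0, 80.8] of 63 (MC903). For comparison, an Il6 UMI was seen in 1.66% of 181 alpha beta T-like cells at day 16, at a median of 11087 UMIs per cell against 8030 in basophil-like cells. The Il6 gene was also among the leading genes of the basophil-like cluster beside Mcpt8, Car8 and Il4, although it had been left out of the clustering.

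Fibroblast-like cells had 29.4 CPM of Il6 [27.2, 31.6] in untreated skin against 47.1 [43.2, 51.2] at day 10, 275 [266, 284] at day 16 and 30.4 [28.4, 32.5] with MC903. Only the day 16 library was above 2-fold, with a log2 ratio of 3.23 [3.11, 3.35] to untreated skin and 2.55 [2.41, 2.68] to day 10. The clusters that made up most of the class differed: A7 (led by Clec3b and Pi16) held 57.9% of its cells in untreated skin, A19 (led by Cxcl5, Ptx3, Saa3 and Tnc) 66.8% at day 10 and 76.9% at day 16, and A18 (led by C7 and Cxcl13) 51.1% with MC903. Within A19 alone Il6 was 58.1 CPM at day 10 and 330 at day 16 (log2 ratio 2.51 [2.37, 2.64]), and its 267 cells held 44.0% of all Il6 UMIs of the day 16 library. In A7 the day 16 level, 15.7 CPM, was below the untreated level of 24.1. In A14, led by Lrrc15, Cilp and Postn, Il6 was 38.4 CPM in untreated skin and 2.42 at day 10 (4 UMIs in 91 cells, log2 ratio -3.99).

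Basophil transcripts were nearly absent from the fibroblast-like class. The summed level of 7 basophil markers there was 0.0141% to 0.0626% of the basophil-like level over the 4 libraries, while Il6 stood at 14.5%, 7.94%, 5.08% and 0.658% of it. In mural-like cells at day 16, 0 of the 7 markers had a UMI and Il6 was at 13.3% of the basophil-like level.

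Mural-like cells, the pericytes and smooth muscle cells of vessels, had 73.5 CPM of Il6 [62.5, 85.9] in untreated skin against 37.7 [31.3, 44.9] at day 10, 719 [672, 768] at day 16 and 146 [133, 160] with MC903. The log2 ratio to untreated skin was 3.29 [3.04, 3.54] at day 16 and, just under the line, 0.99 [0.72, 1.26] with MC903. These UMIs were concentrated: 5 of 52 cells held 66.1% of the class's Il6 UMIs at day 16, and 5 of 218 held 66.4% with MC903. Blood endothelial-like cells had 42.8 CPM [34.2, 52.9] at day 10 and 140 [122, 161] at day 16.

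Low levels of Il6 were seen in further classes. The macrophage or monocyte-like class had 2.77, 2.03, 18.5 and 28.5 CPM across the libraries in order, and of its 120 UMIs with MC903 5 cells held 89.2%. Neutrophil-like cells had 0.636 CPM at day 10, 3.25 at day 16 and 29.3 with MC903, where all 73 UMIs came from 4 of 311 cells. The neutrophil-like log2 ratio of day 16 to day 10 was 2.35, but after subtraction of 5% free RNA nothing was left at day 16 and 0.128 CPM at day 10. Keratinocyte-like cells stayed below 1 CPM in all libraries.

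**Figure D3:**
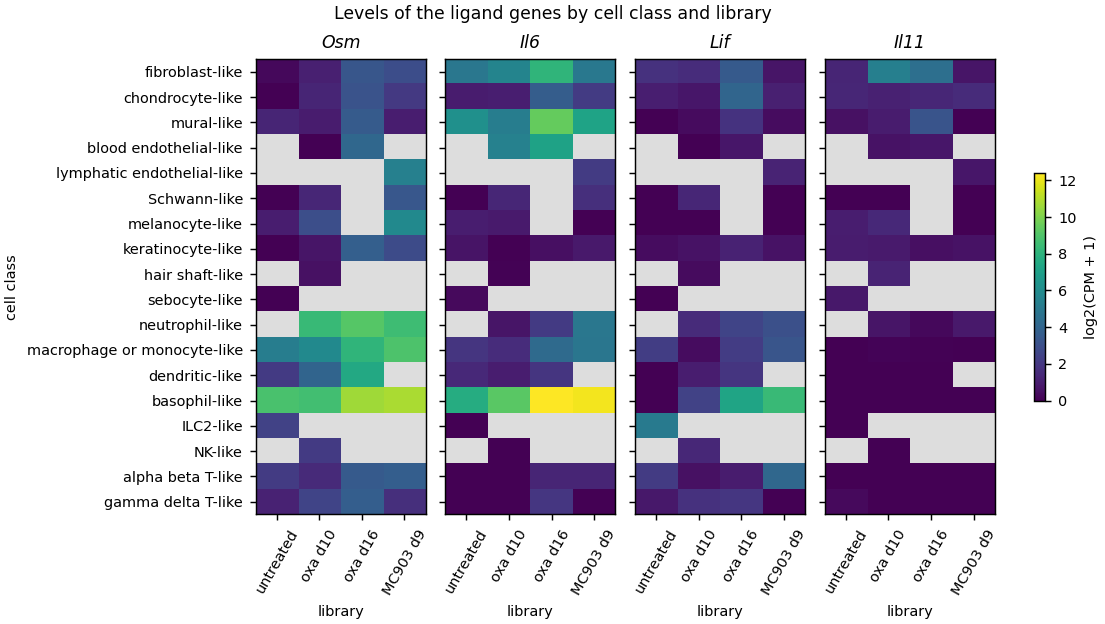
Levels of the 4 ligand genes as log2(CPM + 1), in colour, for cell classes (rows) and libraries (columns); grey marks fewer than 50 cells of the class (10 for basophil-like cells). Basophil-like cells are brightest for Osm and Il6 in the treated libraries and, at day 16 and with MC903, for Lif, while Il11 is brightest in fibroblast-like cells after oxazolone.

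Lif, which shares its genomic neighbourhood with Osm, was scarce, with 101, 81, 569 and 319 UMIs in the libraries. Basophil-like cells had 0 Lif UMIs in untreated skin against 2 at day 10 (4.41 CPM), 151 CPM [117, 191] at day 16 and 333 [287, 385] with MC903, where they held 57.4% of the library's Lif UMIs. The log2 ratio of day 16 to day 10 was 5.10 [3.19, 8.17]. ILC2-like cells, innate lymphocytes that make type 2 cytokines, were the highest measured class in untreated skin at 33.9 CPM [19.0, 55.9] (15 UMIs in 69 cells). With MC903 alpha beta T-like cells had 16.7 CPM (35 UMIs).

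In fibroblast-like cells Lif was 2.42 CPM in untreated skin against 2.02 at day 10, 10.3 at day 16 and 0.628 with MC903. The day 16 library was higher than untreated skin (log2 ratio 2.09 [1.62, 2.57]) and the MC903 library lower (-1.95 [-2.80, -1.16]). Cells with both an Il6 and a Lif UMI were 0.693%, 2.06%, 11.5% and 0.372% of the class in the 4 libraries, at median depths that also differed (12740, 28162, 36228 and 24938 UMIs). In chondrocyte-like cells Lif was 15.6 CPM at day 16 against 0.711 to 1.10 in the other 3 libraries. Of those 61 day 16 UMIs, 57 came from 5 cells of cluster A6.

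Il11 was a transcript of fibroblast-like cells after oxazolone. The libraries held 98, 527, 312 and 51 Il11 UMIs, with a fibroblast-like share of 34.7%, 85.8%, 89.4% and 35.3%. Their level was 1.47 CPM [1.02, 2.05] in untreated skin against 39.8 [36.2, 43.6] at day 10, 22.0 [19.5, 24.8] at day 16 and 0.628 [0.372, 0.992] with MC903. Both oxazolone libraries were higher than untreated skin (log2 ratios 4.76 [4.26, 5.31] and 3.91 [3.39, 4.47]), and MC903 was lower (-1.23 [-2.14, -0.36]). Nearly all of it lay in cluster A19, with 449 UMIs at day 10 (50.6 CPM) and 275 at day 16 (26.6 CPM).

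Few cells carried the Il11 signal. The 5 cells with most UMIs held 70.4% of the fibroblast-like Il11 UMIs at day 10 and 81.0% at day 16, and the highest single cells had 93 and 131 UMIs. An Il6 UMI was seen in 57.3% of fibroblast-like cells at day 16 and an Il11 UMI in 8.93%. The Il6 level of the class was far above that of Il11, so these shares do not compare spread alone. In keratinocyte-like cells of that library an Il6 UMI was seen in 1.30%, at median depths of 25402 against 36228 UMIs. Chondrocyte-like cells had 1.19 to 1.84 CPM of Il11 in every library, and basophil-like cells had 0 UMIs in all 4.

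The receptor side was led by stromal classes. Osmr, the chain that makes gp130 responsive to oncostatin M, was measured in fibroblast-like, chondrocyte-like, mural-like, blood endothelial-like and keratinocyte-like cells and was near 0 in the leukocyte classes that held Osm. Macrophage or monocyte-like cells had 0, 16, 21 and 1 Osmr UMIs in the 4 libraries (at most 0.675 CPM), dendritic-like cells had 0 in the 3 libraries with enough cells, and basophil-like cells had 0, 0, 2 and 2. Neutrophil-like cells had 1.80 CPM at day 10, 1.15 at day 16 and 18.9 with MC903, where 5 cells held 72.3% of the 47 UMIs.

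Fibroblast-like Osmr was 102 CPM [97.7, 106] in untreated skin against 152 [145, 159] at day 10, 209 [201, 217] at day 16 and 210 [204, 215] with MC903. Day 16 and MC903 were each just past a 2-fold difference from the untreated level (log2 ratios 1.04 [0.96, 1.12] and 1.04 [0.97, 1.11]), and day 10 was 0.58 above it. Inside clusters the differences were smaller or larger than in the class: A7 had 113 CPM in untreated skin and 108 at day 16, A14 76.2 in untreated skin and 73.3 at day 10, A19 173 at day 10 and 228 at day 16, and A18 122 in untreated skin and 224 with MC903 (log2 ratio 0.87 [0.47, 1.30]). With a coarser clustering (resolution 0.5) only 94 MC903 cells were fibroblast-like, since 982 of the 1076, all but 1 of them from A18 and A21, fell into 1 unnamed cluster, and the level was 157 CPM and the log2 ratio 0.62. The MC903 calls of the class therefore rest on counting A18 and A21 as fibroblast-like, and the Osmr ratio was also 0.99 without doublet removal.

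Chondrocyte-like cells, the cartilage class of skin that includes the ear, had 75.5 CPM of Osmr [70.2, 81.2] in untreated skin against 146 [138, 154] at day 10, 142 [131, 155] at day 16 and 314 [304, 325] with MC903. The MC903 library stood apart, with a log2 ratio of 2.06 [1.94, 2.17]. Most MC903 cells of the class (87.5%) lay in cluster A9, led by Angptl7, Thbs4 and Cilp2, whereas A6, led by Col2a1 and Acan, held most in the other libraries. The difference was found in both: within A6 Osmr was 70.4 CPM in untreated skin and 346 with MC903 (2.30 [2.13, 2.47]), and within A9 91.6 and 308 (1.75 [1.55, 1.96]).

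In mural-like cells Osmr was 106 CPM [92.8, 121], 151 [138, 165], 245 [218, 275] and 156 [142, 171] in the order of the libraries, highest at day 16. Blood endothelial-like cells had 200 CPM [181, 220] at day 10 and 144 [125, 164] at day 16. Keratinocyte-like cells had 61.0, 82.1, 68.6 and 109 CPM and no 2-fold difference. Melanocyte-like cells were lower, at 9.91 CPM in untreated skin against 22.5 at day 10 and 8.25 with MC903.

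**Figure D4:**
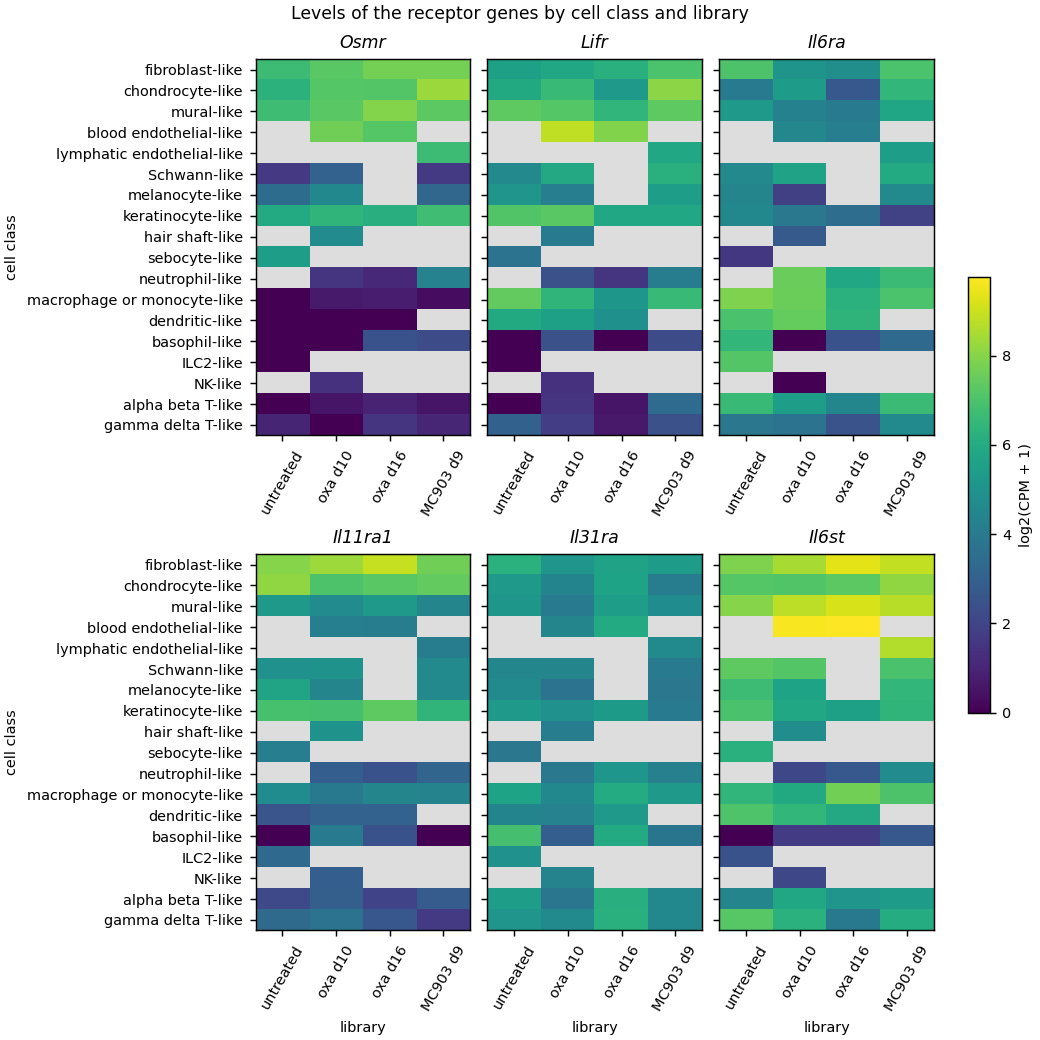
Levels of the 6 receptor genes as log2(CPM + 1), in colour, for cell classes (rows) and libraries (columns); grey marks fewer than 50 cells of the class (10 for basophil-like cells). Osmr is bright in stromal classes and near 0 in most leukocyte classes, Il6st is brightest in blood endothelial-like cells (818 and 867 CPM), and Il31ra differs less between classes than Osmr.

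Il6st, the shared gp130 chain, was highest in blood endothelial-like cells, at 818 CPM [779, 859] at day 10 and 867 [820, 915] at day 16. Fibroblast-like cells had 233 CPM [227, 239] in untreated skin against 360 [349, 371] at day 10, 660 [646, 674] at day 16 and 470 [462, 478] with MC903, log2 ratios of 0.63, 1.50 and 1.01. Keratinocyte-like cells went the other way, with 125 CPM in untreated skin, then 55.8, 46.3 and 81.6 in the treated ones, and were called lower at both oxazolone days (-1.16 and -1.43). Both keratinocyte-like calls ended under the coarser clustering, at -0.85 and -0.98. Basophil-like cells had 0, 1, 1 and 3 Il6st UMIs, and neutrophil-like cells 3.29 to 24.9 CPM. The classes with the highest Osm levels per UMI thus held few transcripts of the shared chain, apart from macrophage or monocyte-like cells, which had 84.1, 60.6, 204 and 129 CPM. At day 16 this was a log2 ratio of 1.28 to untreated skin and 1.75 to day 10, and within cluster B1 it was 137 CPM at day 10 and 265 at day 16 (0.95). Gamma delta T-like cells had 148 CPM in untreated skin, then 73.4, 14.6 and 65.7 in the treated ones (-3.34 at day 16). That ratio compares different clusters, B8 (led by Trdv4 and Xcl1, 91.2% of the untreated cells) and B13 (led by Cd163l1 and Il17a, 98.8% at day 16). Within B13 the level was 14.0 CPM (5 UMIs) in untreated skin and 13.6 at day 16.

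Lifr, the LIF receptor chain, was also highest in blood endothelial-like cells (447 CPM at day 10 and 237 at day 16). Chondrocyte-like cells had 60.6, 97.5, 37.0 and 263 CPM across the libraries, and with MC903 the ratio to untreated skin was 2.12 [1.99, 2.25], close to that of Osmr in the same cells. Within A6 Lifr was 60.4 CPM in untreated skin and 295 with MC903, and within A9 61.4 and 257. Fibroblast-like cells had 45.7, 55.5, 73.1 and 125 CPM, and the MC903 ratio of 1.45 [1.36, 1.56] was 0.15 under the coarser clustering. Keratinocyte-like cells had 137 and 153 CPM in untreated skin and at day 10, and 57.0 and 57.4 at day 16 and with MC903 (-1.26 and -1.25). The macrophage or monocyte-like class had 169, 82.9, 34.7 and 97.6 CPM, lowest at day 16 (-2.29).

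Il6ra, the ligand-binding IL-6 chain, was highest in macrophage or monocyte-like cells in untreated skin and at day 10 (236 and 191 CPM, then 74.9 and 125). Dendritic-like cells had 124, 173 and 80.3 CPM in the first 3 libraries and were the highest class at day 16, and fibroblast-like cells were highest with MC903. Neutrophil-like cells were at 185 CPM at day 10, 57.3 at day 16 and 99.6 with MC903. In fibroblast-like cells it was 129 CPM [124, 134] in untreated skin and 128 [124, 132] with MC903, and 32.1 [28.9, 35.6] and 27.2 [24.4, 30.2] at the oxazolone days. Both oxazolone libraries were called lower (-2.01 [-2.17, -1.85] and -2.25 [-2.41, -2.08]), while MC903 differed by -0.01. The lower level was also present within single clusters, in A7 at day 16 (174 against 51.6 CPM, -1.76) and in A14 at day 10 (60.3 against 21.2, -1.51). Fibroblast-like cells at day 16 thus had more Il6 and less Il6ra than in untreated skin. Within A18 the MC903 level was higher, 144 CPM against 42.3 (1.76), so the class value of -0.01 hides clusters that differ.

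Chondrocyte-like Il6ra ran in both directions. It was 14.7 CPM [12.4, 17.3] in untreated skin against 41.1 [36.9, 45.7] at day 10, 5.36 [3.32, 8.20] at day 16 and 86.9 [81.5, 92.6] with MC903, log2 ratios of 1.48, -1.46 and 2.56. Keratinocyte-like cells had 22.6, 13.9, 10.3 and 2.66 CPM, the last from 10 UMIs in 98 cells (-3.09).

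Il11ra1, the IL-11 binding chain, lay in the same stromal and epithelial classes. In fibroblast-like cells it was 251 CPM [245, 258] in untreated skin against 322 [312, 333] at day 10, 482 [470, 494] at day 16 and 199 [194, 204] with MC903, with no 2-fold call (0.94 at day 16). Chondrocyte-like cells had 281, 131, 154 and 171 CPM and were called lower at day 10 (-1.10), and keratinocyte-like cells had 120, 118, 160 and 82.7. Neutrophil-like cells had 4.56 to 8.03 CPM.

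Il31ra was spread more evenly over the classes than Osmr. Among classes of at least 50 cells its highest class was 2.18, 1.66, 1.45 and 2.02 times the median class in the 4 libraries, against 17.6 to 55.2 times for Osmr. Il6st was about as even in untreated skin (1.97 times) and Il6ra with MC903 (2.25 times). Fibroblast-like cells had 73.9, 32.7, 47.8 and 41.0 CPM, keratinocyte-like cells 37.0, 29.3, 38.6 and 14.6, and macrophage or monocyte-like cells 49.0, 22.3, 62.8 and 37.7. The part of the overlapping gene Gm3226 in this even level was not tested. In the keratinocyte-like cluster A13, led by the hair follicle genes Lgr5 and Lhx2, it was 158 CPM in untreated skin against 41.2 at day 10 and 40.1 at day 16.

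Counted over the 10 genes, fibroblast-like cells at day 16 had the most members called against untreated skin. Osm, Il11, Il6, Lif, Il6st and Osmr were called higher and Il6ra lower, 7 of 10 measured members, where 24.0% of all 14077 genes measured in that comparison were called. The median log2 ratio of the members was 1.27 against -0.18 for all genes. It was larger in chondrocyte-like cells with MC903, at 1.915 against -0.004. Both medians include ligands that reached the minimum count only through the treated library. The Osm call (5.37) stood beside the neutrophil markers given above, and after subtraction of 5% free RNA the day 16 level was 0, which leaves no ratio. Osm had 5 UMIs in untreated fibroblast-like cells and reached the minimum count only through day 16. Its call was thus fixed by that minimum and adds nothing to the count. At day 10 only Il11 was higher, and Il6ra and Il31ra were lower, 3 of 9 measured members against 16.9% of all genes. With MC903 Osm, Lifr, Osmr and Il6st were higher and Lif and Il11 lower, 6 of 10 against 21.4%. The Osm call with MC903 was fixed by the minimum count in the same way. Under the coarser clustering, with its 94 cells, 0 members were higher with MC903 (Il6st at 0.91), and 2 were with median-of-ratios scaling or without doublet removal. From day 10 to day 16 Osm, Il6 and Lif were higher, 3 of 10 against 13.2%, and for Osm nothing was left in either library after the subtraction.

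**Figure D5:**
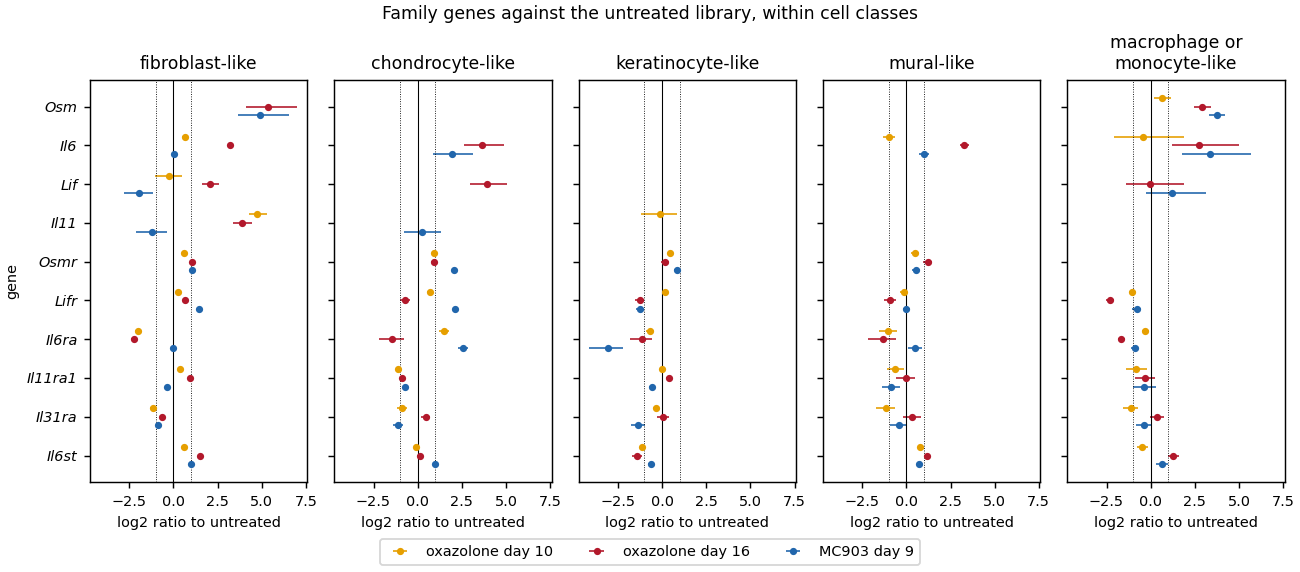
Log2 ratio of each family gene's CPM to the untreated library (x axis, points with 95% counting intervals) in 5 cell classes, for the 3 treated libraries in different colours; dotted lines mark a 2-fold difference, and genes with fewer than 30 UMIs in the pair have no point. In fibroblast-like cells Il6 is high only at day 16 (3.23), Il11 at both oxazolone days (4.76 and 3.91), and Il6ra is low at both (-2.01 and -2.25), and in chondrocyte-like cells Osmr, Lifr and Il6ra are highest with MC903.

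In chondrocyte-like cells 2 of 6 measured members were called at day 10 (8.88% of all genes), Il6ra higher and Il11ra1 lower. At day 16 4 of 9 were called (15.1%): Lif (3.92), Il6 (3.66) and Osm were higher and Il6ra was lower. Lif, Il6 and Osm reached the minimum count only through day 16. Their calls were thus fixed by that minimum and add nothing to the count. With MC903 6 of 9 were called (19.8%), with Il6ra, Lifr, Osmr, Il6 (1.91) and Osm higher and Il31ra lower (-1.11). Il6 and Osm reached the minimum count only through MC903, so their calls were likewise fixed and add nothing to the count. The Osm UMIs of untreated chondrocyte-like cells numbered 0, so the MC903 level of 3.22 CPM was at least 10.4-fold higher, but after subtraction of 5% free RNA it was 0 as well. The same holds for Osm at day 16. The Il6 ratio was 0.04 with that subtraction and 0.14 without doublet removal, so both ligand calls rest on few transcripts, whereas Osmr, Lifr, Il6ra and Il31ra kept their calls under other scaling, coarser clustering, free RNA subtraction and no doublet removal. From day 10 to day 16 6 of 9 were called (11.3%), with Osm, Il6, Lif and Il31ra higher and Il6ra and Lifr lower. Osm, Il6 and Lif again reached the minimum count only through day 16, so these calls add nothing to the count.

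Keratinocyte-like cells, the usual textbook target of oncostatin M in skin, had 1 of 7 measured members called at day 10 (18.7% of all genes), 3 of 6 at day 16 (25.9%) and 3 of 6 with MC903 (22.6%), all lower. At day 16 and with MC903 the 6 measured members were the 6 receptor chains. The calls were Il6st at day 10; Il6st, Lifr and Il6ra at day 16; and Il6ra, Il31ra and Lifr with MC903. Osmr did not pass the line in any comparison with untreated skin (0.84 with MC903). The main clusters of the class differed between untreated skin (A11), oxazolone (A13) and MC903 (A16), and only 77 and 98 cells were left at day 16 and with MC903. Of the 98 MC903 cells 86, those of A16, fell into a sebocyte-like cluster at resolution 0.5, which left a class of 13, so the MC903 calls rest on counting A16 as keratinocyte-like. Without doublet removal Il6ra at day 16 was at -0.80.

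Mural-like cells had 2 of 7 members called at day 10 (7.84%), Il6ra and Il31ra, both lower, with Il6ra (-1.02) at -0.79 without doublet removal. At day 16 4 of 7 were called (19.0%), with Il6, Osmr and Il6st higher and Il6ra lower, a set also called in fibroblast-like cells of the same pair of libraries. With MC903 0 of 7 were called (10.2%), and 1 with median-of-ratios scaling. From day 10 to day 16 Il6 (4.25) and Il31ra were higher, 2 of 7 (13.6%).

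Macrophage or monocyte-like cells had 2 of 7 members called at day 10 (16.3%), Lifr and Il31ra, both lower. At day 16 Osm, Il6 and Il6st were higher and Il6ra and Lifr lower, 5 of 8 (31.5%), and with MC903 Osm, Il6 and Lif were higher, 3 of 8 (17.7%), with Lif (1.21) at 0.83 without doublet removal. The MC903 call of Il6 was fixed by the minimum count, which it reached only through MC903. From day 10 to day 16 5 members were higher and 2 lower, 7 of 9 (28.8%), and the lower calls, Il6ra at -1.35 and Lifr at -1.26, were -0.94 and -0.84 with median-of-ratios scaling. Among the higher members, Lif reached the minimum count only through day 16. The median of all genes in that pair was shifted by -0.42 under CPM scaling. In neutrophil-like cells the shift was larger, -0.60, and 5 of 9 members were called (43.4%), among them Il6ra (-1.69), which was lower, as in macrophage or monocyte-like cells.

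Basophil-like cells could be compared between day 16 and day 10, with 57 and 79 cells. All 4 members with enough UMIs, Osm, Il6, Lif and Il31ra, were higher at day 16, where 33.0% of all genes were called in either direction and 6.51% as higher. Lif and Il31ra stood at 4.41 and 6.61 CPM at day 10 and reached the minimum count only through day 16. Their calls were thus fixed by that minimum and add nothing to the count. The median of all genes was -0.54, so these 4 genes were higher in a pair in which most genes were lower in CPM. Blood endothelial-like cells had 2 of 7 called (8.78%), Il6 (1.71) and Il31ra (1.59), both higher.

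Cells with UMIs of both chains of a receptor were counted after each cell was thinned to 1000 UMIs, so that cells were compared at equal depth. The size of the shares still depends on the depth chosen, and they do not measure which cells can respond. The oncostatin M receptor pair, Osmr with Il6st, was found in 1.64% [1.09, 2.36] of the untreated fibroblast-like cells against 3.12% [1.62, 5.38] at day 10, 9.04% [6.18, 12.6] at day 16 and 6.13% [4.74, 7.77] with MC903. The day 16 and MC903 intervals lay above the untreated one. Without thinning the shares over all cells of the class were 51.3%, 78.7%, 80.7% and 77.6%, at median depths of 12740, 28162, 36228 and 24938 UMIs. The thinned shares left out 20, 4, 15 and 48 cells with fewer than 1000 UMIs. The cells deep enough for thinning had median depths of 12840.5, 28265, 37287.5 and 25755.5 UMIs before it.

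Among chondrocyte-like cells the pair was found in 0.676% [0.249, 1.47] in untreated skin and 5.86% [4.16, 7.99] with MC903, with 1.25% and 1.32% at the oxazolone days. Macrophage or monocyte-like and neutrophil-like cells held little Osmr. Counts of 0 there were therefore likely beforehand and give no background rate of pairs. In macrophage or monocyte-like cells the pair was found in 0 of 120, 1880, 1463 and 178 cells. With 3 cells as the limit of a count of 0, this allows shares of cells with both UMIs at this depth of up to 2.50%, 0.160%, 0.205% and 1.69%. Neutrophil-like cells had 0 of 1732, 4106 and 289 in the treated libraries (up to 0.173%, 0.0731% and 1.04%). Keratinocyte-like cells had 0.352% and 0.580% in untreated skin and at day 10, and 0 of 75 and 0 of 97 in the other libraries, which allows up to 4.00% and 3.09%. Mural-like cells had 4.71%, 6.16%, 1.96% (1 of 51 cells) and 2.91%, so their day 16 share does not follow the CPM and gives no order.

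The LIF receptor pair, Lifr with Il6st, was most frequent in blood endothelial-like cells, at 17.6% [10.9, 26.1] at day 10 and 12.5% [6.16, 21.8] at day 16. In fibroblast-like cells it was 1.17%, 3.12%, 3.92% and 3.79% across the libraries, and in chondrocyte-like cells 0.338%, 1.67%, 1.32% and 4.44%. The IL-6 receptor pair, Il6ra with Il6st, was at 2.28%, 1.30%, 1.51% and 4.57% in the fibroblast-like class and at 4.17%, 1.12%, 1.09% and 1.12% in the macrophage or monocyte-like class. The IL-11 receptor pair was the most frequent of the 5 pairs in fibroblast-like cells of the first 3 libraries (4.44%, 9.61%, 15.4% and 5.35%). The IL-31 receptor pair, Il31ra with Osmr, stayed between 0.519% and 0.904% of fibroblast-like cells.

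Downstream genes were read from lists of JAK, STAT and regulator genes (15 genes), other cytokines and chains of the family (10), STAT3 and acute phase response genes (18) and genes of the dissociation stress response (12). In fibroblast-like cells the STAT3 and acute phase list had 5 genes higher and 3 lower of 18 measured at day 10 (median log2 ratio 0.02, all genes -0.06), 9 higher and 0 lower at day 16 (0.81, all genes -0.18) and 8 higher and 0 lower with MC903 (0.94, all genes 0.05). In these comparisons 16.9%, 24.0% and 21.4% of all genes were called in either direction. The acute phase gene Saa3 was 0.302 CPM in untreated skin, then 1389, 2595 and 177 in the treated ones, and Timp1, a metalloproteinase inhibitor, was 37.0 CPM and then 1428, 2002 and 212. Hp (haptoglobin) had log2 ratios of 10.18, 10.11 and 9.81, and Lcn2, an iron-binding antimicrobial protein, 8.84, 9.29 and 7.62. Saa3 and Timp1 were among the genes that define cluster A19, which holds most fibroblast-like cells after oxazolone, so their ratios also describe how that cluster was found.

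From day 10 to day 16, where A19 was the main cluster on both sides, 8 of 18 genes were higher and 0 lower (median 0.82, all genes -0.10), with the monocyte attractant Ccl2 (2.04), Serpina3n (1.74), Bcl3 (1.40) and Pim1 (1.38) as the largest. The stress list moved with it: 6 of 12 genes were higher at day 16 than at day 10 (median 0.97), among them Zfp36 (2.00), Fosb (1.58) and Egr1 (1.51). Of all genes, 13.2% were called in that pair. Against untreated skin the stress list had 0 higher and 7 lower at day 10, among them Atf3 (-2.35), Zfp36 (-2.07), Fos (-1.92) and Fosb (-1.85), and 1 lower at day 16. The shares over all genes were 16.9% and 24.0%. The part of the dissociation in these differences was not tested. Of the JAK and STAT list, Jak2 was 64.6 CPM in untreated skin, then 140, 149 and 128 in the treated ones, called higher at both oxazolone days (1.11 and 1.21) and at 0.99 with MC903. Cish (1.49) was higher and Socs2 (-1.17) lower at day 16. The feedback inhibitor gene Socs3 was not called in fibroblast-like cells at day 10 (-0.79).

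Other family genes in fibroblast-like cells differed by agent. Cntfr, the binding chain of ciliary neurotrophic factor, was 21.2 CPM in untreated skin, lower after oxazolone (6.51 and 8.61) and higher with MC903 (79.2). Clcf1 was higher at day 10 (1.07) and with MC903 (1.69), and Il27ra at day 16 (3.19).

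Chondrocyte-like cells had 3 STAT3 and acute phase genes higher and 4 lower of 15 at day 10, then 5 and 0 of 16 (day 16) and 5 and 0 of 17 (MC903), where 8.88%, 15.1% and 19.8% of all genes were called. Serpina3n (5.06, 6.51 and 4.68) and Lcn2 (3.70, 5.92 and 4.16) led all 3 comparisons. Socs3 was 351 CPM in untreated skin and 79.1 at day 10 (-2.15), and it was higher again at day 16 than at day 10 (2.11). In the same cells 0 stress genes were higher and 8 of 12 lower at day 10, and 7 of 12 were higher and 1 lower at day 16 than at day 10 (median 1.21). In the latter pair 11.3% of all genes were called. Mural-like cells had 6 of 17 STAT3 and acute phase genes higher and 0 lower at day 16, with the kinase gene Pim1 (3.21) and Serpina3n (3.14), where 19.0% of all genes were called. At day 10 they had 11 of 12 stress genes lower, where 7.84% of all genes were called.

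Keratinocyte-like cells had 5 of 16 STAT3 and acute phase genes higher and 1 lower at day 16, and 1 of 15 higher and 3 lower with MC903, against 25.9% and 22.6% of all genes called. With MC903 the count is thus near the share over all genes. Cntfr was higher in all 3 treated libraries (4.01, 4.58 and 1.98), and the inhibitor gene Socs1 lower (-1.99, -3.20 and -1.78). Macrophage or monocyte-like cells had 9 of 18 higher and 2 lower at day 16 and 10 of 17 higher with MC903, with Timp1 (6.44 and 5.55) and the vessel growth factor Vegfa (4.27 and 4.58), against 31.5% and 17.7% of all genes. Their stress list had 8 and 4 of 12 lower and 0 higher. Of their JAK and STAT list 5 of 15 were higher in each, with Socs2 (4.03 and 3.68), Cish (3.22 and 2.21) and Jak2 (2.52 and 2.21).

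Basophil-like cells at day 16 against day 10 had 2 of 12 measured JAK and STAT genes higher, Socs3 (260 against 44.1 CPM, 2.56) and Stat3 (240 against 97.0, 1.31). Of the STAT3 and acute phase list 6 of 10 were higher (median 1.14, all genes -0.54), with Lcn2 (2.41) and Vegfa (1.44), and of the stress list 3 of 12, with Atf3 (2.99) and Egr1 (2.03). Of all genes, 33.0% were called in either direction in that pair and 6.51% as higher. The class as a whole held 1 UMI of the gp130 chain Il6st in each of these libraries. Blood endothelial-like cells, with the highest Il6st level, had 8 of 16 STAT3 and acute phase genes higher at day 16 than at day 10, with Ccl2 (4.24) and Vegfa (2.17), where 8.78% of all genes were called, and Socs3 was higher (1.10). Of the stress list 5 of 12 were higher and 0 lower in that pair (median 0.57), with Zfp36 (2.06) and Hspa1b (1.70).

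Genes with the most similar pattern were ranked by Pearson's r of log2(CPM + 1) over 50 class and library sums, which share libraries and depth, so r is a description. Osm ran closest to Lilr4b (0.95), Lilrb4a (0.95), Ccr1 (0.93), Cyp4f18 (0.93) and Nlrp3 (0.92). Lif ran closest to Csf2 (0.77), Nfkb1 (0.74), Il1rl1, Furin and Il13 (0.73 each), and Il6 to Amigo2 and Gm15737 (0.79 each), Hgf (0.76), Slco2b1 (0.75) and Alox15 (0.73). The levels of all 10 genes most like Il6 or Lif were highest in basophil-like cells. Il11 ran closest to Sox11 (0.84), CR974586.4 (0.82), Gm49257 and Reg3g (0.79 each) and Rab3c (0.78), all highest in fibroblast-like cells after oxazolone. Osmr ran closest to Pls3 (0.91), Arhgap44, Ppic and Pcdhb16 (0.90 each) and Ptprg (0.89). Over the 34 sums of at least 100 cells, 1 of these 5 genes was again among the 5 closest for Osm, 0 for Il6, 1 for Lif, 2 for Il11 and 3 for Osmr.

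Between the family genes themselves, r was 0.79 for Il6st and Lifr, 0.72 for Osmr and Il11ra1, 0.62 for Osm and Lif, and 0.61 for Osmr and Il6st. Osm and Il6 had 0.44. Ligand and receptor ran apart for oncostatin M, with -0.41 for Osm and Osmr and -0.50 for Osm and Il6st.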

How the data were processed

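Single-cell RNA was measured in 4 libraries of mouse skin with the 10x Chromium 3′ v3.1 chemistry, per the labels' protocols. The deposited values are raw UMI counts per gene and barcode, per the file headers, for barcodes the authors had already called as cells. Cell Ranger 8.0 and mm10 stand in the submitters' processing notes. Per the file headers, 7.2.0 made the files of untreated skin and of the earlier oxazolone time, and 8.0.0 the others. Comparisons of day 16 or MC903 with untreated skin or day 10 thus cross versions, and there version and treatment cannot be told apart. Day 10 and untreated skin share a version. Annotation and intronic counting were not given in the sources used here.

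Barcodes needed 300 genes and no more than 15% mitochondrial UMIs, which removed 53, 407, 290 and 342 barcodes, and 478, 578, 519 and 129 doublets were removed with Scrublet as built into scanpy 1.11.5 (0.8% per 1000 barcodes). Leiden clustering (leidenalg 0.10.2, resolution 1) used 2000 variable genes without the 10 family genes, 30 principal components and 15 neighbours, with no integration, and gave 58 clusters, named from 25 marker sets. Python 3.11.15, numpy 2.4.6, scipy 1.17.1 and matplotlib 3.10.9 were used.

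Counts were summed per class and library from 50 cells (basophil-like from 10) and given as CPM with Poisson intervals, shares with Clopper-Pearson intervals and ratios with conditional binomial intervals, all exact at 95%. A count of 0 was set to 3 UMIs in a ratio, which is then a bound. With 1 library per group no test was possible. Receptor pairs were counted after thinning to 1000 UMIs. Named genes are the 10 members, at most the 4 largest differences per list and comparison, and the 5 genes most like each ligand and Osmr among genes with at least 200 UMIs. Some genes of the lists are not reported here. The members and lists were chosen with earlier results of these data known. The ratio step was tested on simulated data. Alternatives were other size factors, filters, clusterings, classes by markers alone (at least 3 markers), subtraction of 5% free RNA and other thinning.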

Additional observations from a re-analysis of the deposited data

Results flagged for a closer look

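Il6ra, Il11 and Lif were higher in 1 treated library than in untreated skin and lower in another within the same class, with counting intervals that exclude equality on both sides. The difference was not tested, since each library stands alone. The intervals cover counting error only, and few cells carried the Il11 UMIs after oxazolone. The ratios also compare partly different clusters. The main fibroblast-like cluster was A7 in untreated skin, A19 after oxazolone and A18 with MC903. The main chondrocyte-like cluster was A9 with MC903 and A6 in the other libraries. In chondrocyte-like cells the log2 ratio of Il6ra, the IL-6 binding chain, was 1.48 at oxazolone day 10, -1.46 at oxazolone day 16 and 2.56 with MC903. In fibroblast-like cells Il11 was at 4.76 at oxazolone day 10 and 3.91 at day 16, against -1.23 with MC903. Lif in fibroblast-like cells was at 2.09 at oxazolone day 16 and -1.95 with MC903. The day 16 Il6ra value rests on 21 UMIs and the MC903 values of Il11 and Lif on 18 UMIs each.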

How the results depend on the processing

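No paired analysis was possible because each group has 1 library. No replicate was left out for the same reason. Depth limits every value with few UMIs, above all the ligands in untreated skin and basophil-like cells there (11 cells).

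Without doublet removal, the Osm share of neutrophil-like cells at day 16 was 59.6%, the Il6 share of basophil-like cells with MC903 52.1% and that of fibroblast-like cells at day 16 46.1%. With classes by markers alone, Osm in macrophage or monocyte-like cells with MC903 was 399 CPM, Il6 at day 16 was 5923 CPM in basophil-like and 260 in fibroblast-like cells, and Osmr in fibroblast-like cells with MC903 was 223. After subtraction of 5% free RNA, Osm in neutrophil-like cells at day 16 was 570 CPM, and Il6 was 5673 in basophil-like and 284 in fibroblast-like cells. Il6 in fibroblast-like cells at day 16 was 285 CPM without doublet removal and 286 at resolution 0.5, and Osmr with MC903 was 201 and 157. Members higher in fibroblast-like cells at day 10 were 2 with no minimum count and 2 without doublet removal, and with MC903 they were 2 with median-of-ratios scaling, 2 without doublet removal and 0 at resolution 0.5, where 94 of 1076 cells were left in the class. Median-of-ratios scaling gave log2 ratios at day 16 over untreated skin of 1.22 for Osmr, 3.40 for Il6, -2.07 for Il6ra and 1.68 for Il6st in fibroblast-like cells, and 3.73 for Il6 in basophil-like cells over day 10. The share of fibroblast-like cells at day 16 with Osmr and Il6st was 17.2% at 2000 UMIs and 80.7% unthinned. Over sums of at least 100 cells, the closest gene was another one for each: Tarm1 for Osm (r 0.96), Elfn1 for Il6 (0.83), Ptgs2 for Lif (0.73), Reg3g for Il11 (0.88) and Pcdhb16 for Osmr (0.94).

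Subtraction of 5% free RNA left 0 UMIs in 1 or both libraries for 8 ratios, 5 of them in both, so these have no value: Osm in fibroblast-like cells at day 16 over untreated skin and over day 10, Osm in chondrocyte-like cells at day 16 (both comparisons) and with MC903, Osm in keratinocyte-like cells at day 16 over day 10, Il6ra in keratinocyte-like cells with MC903 and Il6 in neutrophil-like cells at day 16 over day 10. Of the other 128 values it moved 11. Resolution 0.5 moved 12 of 137 values, median-of-ratios scaling 29 of 160, no doublet removal 25 of 142, no minimum count 13 of 78, classes by markers alone 4 of 8, and the 10% mitochondrial limit 0 of 6. Thinning to 2000 UMIs and no thinning each moved 8 of 8 shares, and sums of at least 100 cells changed 5 of 5 closest genes. No direction turned among the values these alternatives gave.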
